A study of Homo sapiens with 12 samples.

Results

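HEL is an established human erythroleukemia cell line that carries the JAK2V617F mutation, and the response described here is that of HEL cells to ITF2357 (givinostat), a small-molecule inhibitor of histone deacetylases. It rests on 6 of the 12 arrays of the series: 3 from cells kept for 6 h with 250 nM ITF2357 and 3 from cells kept without the drug (0 nM). The other 6 arrays hold the same pair of conditions in UKE1, a second line with the same mutation, and serve here only for comparison. Both HEL groups were grown in RPMI 1640 with fetal calf serum, and horse serum and hydrocortisone were added for UKE1. Each HEL group is thus 3 samples of a single cell line, described as independent triplicates, with no further detail on how separate the cultures were. All 18417 genes with a row of 1 gene symbol were members, and attention is given here to genes and families other than the best-known factors of blood formation.

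Histone deacetylases take acetyl groups off lysines of histones and of many other proteins, and they work inside multi-subunit corepressor complexes such as SIN3, NuRD, CoREST and NCOR/SMRT. Acetyltransferases such as CREBBP and KAT5 put the groups on, and proteins with a bromodomain bind acetylated lysine. Inhibitors of the zinc-dependent deacetylases therefore raise acetylation in the cell, and they are known to move many transcripts both up and down within hours. In JAK2-mutant blood cells such drugs have been studied because they slow growth.

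RNA levels were read on Affymetrix Gene ST arrays. The deposited values are log2 levels after RMA normalization, so every change is relative to the other transcripts of the same array, and a change of all transcripts together would not be seen. As in any bulk sample, fewer cells of a type and less RNA per cell cannot be told apart. The 6 HEL arrays had medians between 6.44 and 6.50, arrays of a group correlated at 0.994 to 0.996 over all rows, and treated arrays correlated with untreated arrays at 0.983 to 0.985. Untreated levels of the 7 erythroid markers measured ran from 6.86 to 12.95 (the embryonic globin HBE1), and 2 rose and 1 fell. Those of the 6 megakaryocyte markers ran from 6.48 for PPBP to 12.08 for the integrin ITGA2B, and 3 fell (GP1BA by 0.92, PF4 by 0.43 and ITGB3 by 0.26) while none rose. The PF4 call was lost without treated replicate 2 or untreated replicate 1 or 3 (adjusted p up to 0.0766). The 6 T cell, 4 B cell and 6 fibroblast markers measured reached untreated levels of at most 6.55, 6.21 and 6.84 and 2 of them fell, while none rose. The monocyte marker LYZ at 9.50, the epithelial keratin KRT18 at 9.94 and the endothelial marker PECAM1 at 11.47 were the highest of their lists, and of the 4 endothelial markers 2 fell and 1 rose. The part of other cells in the results was not tested.

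Of the 18417 genes, 7816 passed an adjusted p of 0.05 (42.4%) in limma's moderated test, 4157 of them higher with ITF2357 (22.6%) and 3659 lower (19.9%). Below, a gene "rose" or "fell" only past that threshold, the error given after a log2 change is its standard error in the fit, and n is 3 arrays a group throughout. A change of at least 2-fold was rarer, in 436 genes upward (2.37%) and 251 downward (1.36%). The counts of risers and fallers in the lists below are to be set against the shares of 22.6% and 19.9%. The lists and their members were chosen with earlier results of these data known, and some hold genes of the largest changes. Their counts are therefore a description and not a test. Calls also varied with level: 9.15% of the 3684 genes of lowest mean level and 65.7% of the 3684 of highest were called. Of the latter 1216 rose and 1206 fell, so lists of genes with high levels are to be read against these counts as well. Without a model, the 3 treated arrays lay wholly above or below the 3 untreated arrays for 9024 genes (49%). The split between higher and lower calls depended on the scaling: 53.2% of calls were higher in the deposited values and 56.6% after median centring over all rows. It was 49.4% after quantile normalization over the tested genes alone and 44% after median centring over them, which makes fallers the majority.

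The genes that rose most came from unrelated parts of cell physiology. GLRX, the cytosolic glutaredoxin that frees proteins from bound glutathione, read 7.16, 6.83 and 7.23 without drug and 9.75, 9.85 and 9.74 with it. Every treated array lay more than 2 log2 units above every untreated one, and the mean rose 6.53-fold (log2 change 2.71 ± 0.089, adjusted p = 4.87e-10). STAT4, the transcription factor that relays interleukin 12 signals, read 6.30, 6.19 and 5.91 without drug and 8.70, 8.80 and 8.87 with it. Its groups were as clearly apart, with a change of 2.65 ± 0.12 (adjusted p = 2.24e-09). ELOVL4, an elongase that makes very long-chain fatty acids, read 4.87, 5.13 and 5.28 without drug and 7.83, 7.60 and 7.71 with it. The highest untreated array was at 5.28 and the lowest treated one at 7.60, a change of 2.62 ± 0.13 (adjusted p = 5.10e-09). GALM, the mutarotase that prepares galactose for its breakdown, read 5.99, 5.65 and 5.68 without drug and 8.18, 8.17 and 8.49 with it, with a change of 2.51 ± 0.098 (adjusted p = 1.38e-09). Both groups were tight, and they did not overlap.

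SMARCA1, the SNF2L motor of ISWI chromatin remodellers, read 4.81, 4.79 and 5.01 without drug and 7.24, 7.41 and 7.34 with it. This was a rise of 5.49-fold (log2 change 2.46 ± 0.13, adjusted p = 6.40e-09). DENND2C, a DENN-domain protein that activates RAB GTPases, read 6.12, 6.38 and 5.96 without drug and 8.71, 8.54 and 8.64 with it, and SERPINB9, the intracellular inhibitor of granzyme B, read 7.01, 7.14 and 7.17 without drug and 9.37, 9.33 and 9.29 with it. Both rose, by 2.48 ± 0.10 and 2.22 ± 0.077, with no overlap of groups. PFN2, a profilin that binds actin monomers, was more scattered before treatment, at 5.38, 4.83 and 5.62 without drug and 7.43, 7.56 and 7.70 with it. The spread of its untreated arrays was well below the change of 2.29 ± 0.15 (adjusted p = 3.79e-08). ARHGAP29, which switches off the GTPase RHOA, read 4.19, 4.0 and 3.83 without drug and 6.26, 6.33 and 6.10 with it, a change of 2.22 ± 0.093 (adjusted p = 1.74e-09). The remaining 6 of the 15 largest increases were TMEM243 (2.44), TMOD2 (2.17, which caps the slow end of actin filaments), SGTB (2.04, a co-chaperone), CYRIA (1.98, which binds RAC1), FCGR2B (1.96, an inhibitory receptor for immunoglobulin G) and TNFRSF10B (1.96, the death receptor DR5). The FCGR2B arrays were the most scattered of the 15, from 4.23 to 7.01 over both groups, and this gene has a near-identical copy, FCGR2C, whose transcripts the probes may also detect.

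Most of the strongest decreases were in genes of ribosome formation, small RNAs and platelet or epithelial proteins. KRT79, a type II keratin known from skin glands, read 9.50, 9.50 and 9.52 without drug and 6.73, 6.77 and 6.83 with it. The arrays of each group lay close together, and the level fell 6.63-fold (log2 change -2.73 ± 0.071, adjusted p = 9.99e-11). UTP20, a large scaffold of the early ribosomal small-subunit particle, read 8.53, 8.74 and 8.76 without drug and 6.16, 6.25 and 6.28 with it, a change of -2.45 ± 0.087 (adjusted p = 7.83e-10). LANCL2, a LanC-like protein that binds glutathione, read 8.91, 8.56 and 8.54 without drug and 6.33, 6.25 and 6.50 with it, and GPR85, an orphan receptor of the SREB family, read 9.19, 9.25 and 9.19 without drug and 6.95, 6.94 and 7.06 with it. Their changes were -2.31 ± 0.10 and -2.22 ± 0.082, and in neither did the groups come within 1 log2 unit of each other. PIGW, the enzyme that acylates inositol early in the synthesis of GPI anchors, read 9.14, 9.08 and 8.97 without drug and 7.23, 7.16 and 7.21 with it and fell 3.64-fold (log2 change -1.86 ± 0.063, adjusted p = 5.81e-10).

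The platelet collagen receptor GP6 read 8.56, 8.54 and 8.74 without drug and 7.02, 6.86 and 6.63 with it, the interferon-induced enzyme RSAD2 (viperin) read 9.96, 9.89 and 9.94 without drug and 8.03, 8.21 and 8.34 with it, and the transglutaminase TGM5 read 11.19, 11.12 and 11.11 without drug and 9.39, 9.36 and 9.52 with it. All of their treated arrays were the lower ones, with changes of -1.78, -1.74 and -1.72. PLD6, a mitochondrial enzyme of small-RNA formation in germ cells, changed by -1.73. The remaining 6 of the 15 largest decreases were non-coding: the small nucleolar RNAs SNORD20, SNORD51, SNORD82 and SNORD105, the microRNA gene MIR223 and MIR17HG, the transcript that hosts the miR-17-92 cluster.

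**Figure D1:**
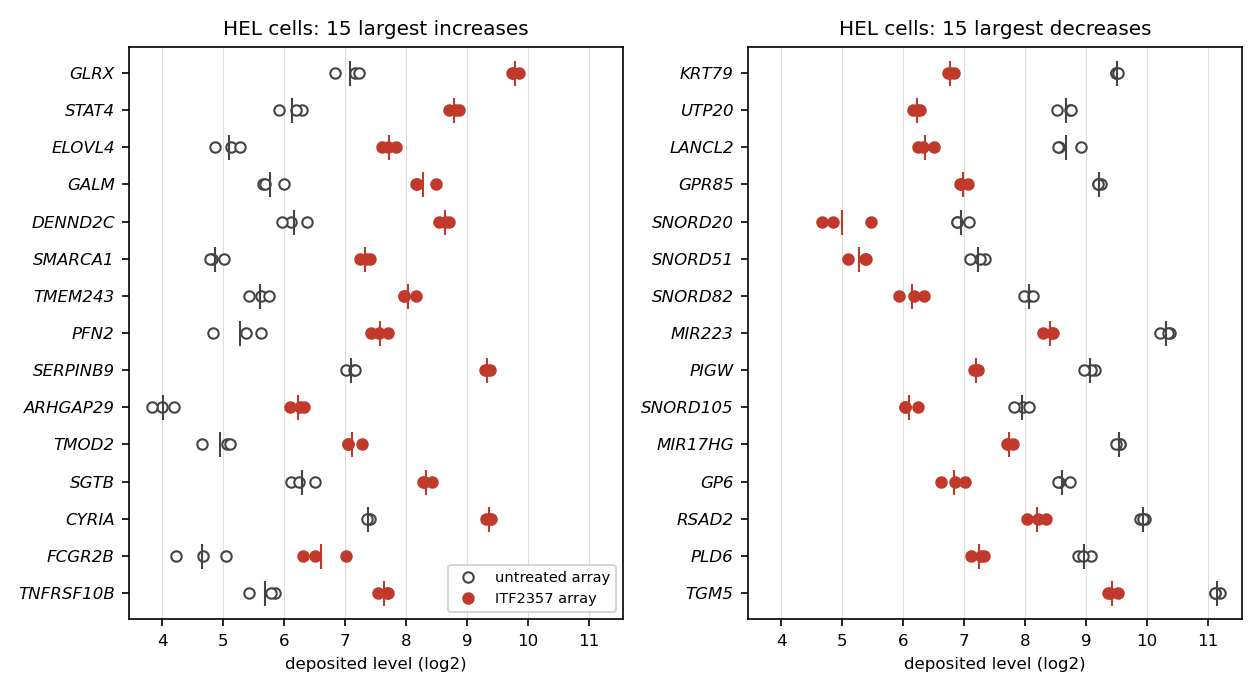
Deposited log2 level (x axis) of each of the 15 genes with the largest increases (left) and the 15 with the largest decreases (right) in HEL cells, with open circles for the 3 untreated arrays, filled circles for the 3 ITF2357 arrays and vertical ticks for the group means. In each of these 30 genes the groups do not overlap, which the choice of genes required, and the changes run from 1.96 to 2.71 among the increases and from -1.72 to -2.73 among the decreases.

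Of the 15 largest increases, 10 also rose in UKE1 and 5 were not called there. The test of the difference itself (UKE1 minus HEL), called for 4395 of all genes (23.9%), was called for 12 of the 15, all with the larger change in HEL. SMARCA1 changed by 0.03 in UKE1, ARHGAP29 by 0.0 and SERPINB9 by -0.06, and the differences were -2.42, -2.22 and -2.29 (adjusted p = 9.43e-07, 1.60e-07 and 4.55e-08). The mean of ARHGAP29 was 2.93 in both UKE1 groups, low in the range of all values (1.26 to 14.36). Whether it was expressed there at all was not tested. TMOD2, CYRIA and STAT4 were the 3 whose difference was not called, with UKE1 changes of 2.47, 1.99 and 2.18. Of the 15 largest decreases 14 also fell in UKE1, and 8 differed, again all larger in HEL. KRT79 was the exception in direction: it changed by 0.19 in UKE1 (adjusted p = 0.0467), a difference of 2.92 (adjusted p = 3.97e-09). These genes were chosen for their size in HEL, so a larger change in HEL than in UKE1 is in part a consequence of the choice.

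The promoters of the strong risers and strong fallers are set side by side here for 2 short motifs, as a description without a test. RefSeq promoter windows (GRCh38.p14, the 250 bases before the start) were matched to 13769 of 16899 protein-coding genes tested (81.5%). The GC box, GGGCGG or its complement CCGCCC, stood in 74.6% of the windows of genes that rose at least 2-fold, 55.9% of those that fell at least 2-fold, and 58.2% of all matched genes. The ETS-type motif CCGGAAG, or its complement CTTCCGG, stood in 4.97%, 16.9% and 12.3% of them. Over all genes that rose, at any size, the shares were 72.6% and 13%, and over all that fell 60.4% and 18.6%. Uncalled genes with a mean level below the median held the GC box in 43.2% and the ETS-type motif in 4.96%, about the ETS-type share of the strong risers. Uncalled genes with a mean level above the median held the GC box in 68% and the ETS-type motif in 19.8%, and all windows of the table held them in 42.6% and 8.52%. The motifs share no bases with each other in the windows printed, and both strands were searched.

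The window of ELOVL4 shows a riser with 4 GC boxes and that of KAT5, an acetyltransferase gene that fell, shows 2 ETS-type motifs. The window of UTP20 holds 1 GC box and no ETS-type motif, so a strong faller need not carry the latter. A strong riser need not carry a GC box either: the windows of GLRX, STAT4, SMARCA1 and GALM hold none. Those of the risers HDAC3 and OAZ2 hold 1 each, and of the fallers KRT79 holds none and PIGW 3. The windows of ELOVL4, KAT5 and UTP20 are printed 5′ to 3′ along the gene's strand, from RefSeq, with both motifs in capitals. ELOVL4 lies at chr6:79947554-79947803 on the minus strand, KAT5 at chr11:65712002-65712251 on the plus strand and UTP20 at chr12:101279855-101280104 on the plus strand.
ELOVL4: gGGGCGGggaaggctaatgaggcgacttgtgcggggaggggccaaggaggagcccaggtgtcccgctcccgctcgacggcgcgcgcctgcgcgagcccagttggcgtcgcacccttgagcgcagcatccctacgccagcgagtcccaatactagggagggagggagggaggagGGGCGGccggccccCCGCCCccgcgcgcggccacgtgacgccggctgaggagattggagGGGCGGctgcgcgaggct
KAT5: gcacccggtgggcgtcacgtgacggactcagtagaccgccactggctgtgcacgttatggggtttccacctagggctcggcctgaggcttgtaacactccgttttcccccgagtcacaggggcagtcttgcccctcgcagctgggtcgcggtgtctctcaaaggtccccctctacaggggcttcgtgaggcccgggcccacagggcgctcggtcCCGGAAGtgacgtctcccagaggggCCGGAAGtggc
UTP20: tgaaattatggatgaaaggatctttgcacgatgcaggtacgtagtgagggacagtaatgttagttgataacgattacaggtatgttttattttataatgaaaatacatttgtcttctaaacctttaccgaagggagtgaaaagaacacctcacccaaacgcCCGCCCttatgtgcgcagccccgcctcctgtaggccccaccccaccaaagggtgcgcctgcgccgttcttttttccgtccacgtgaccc

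**Figure D2:**
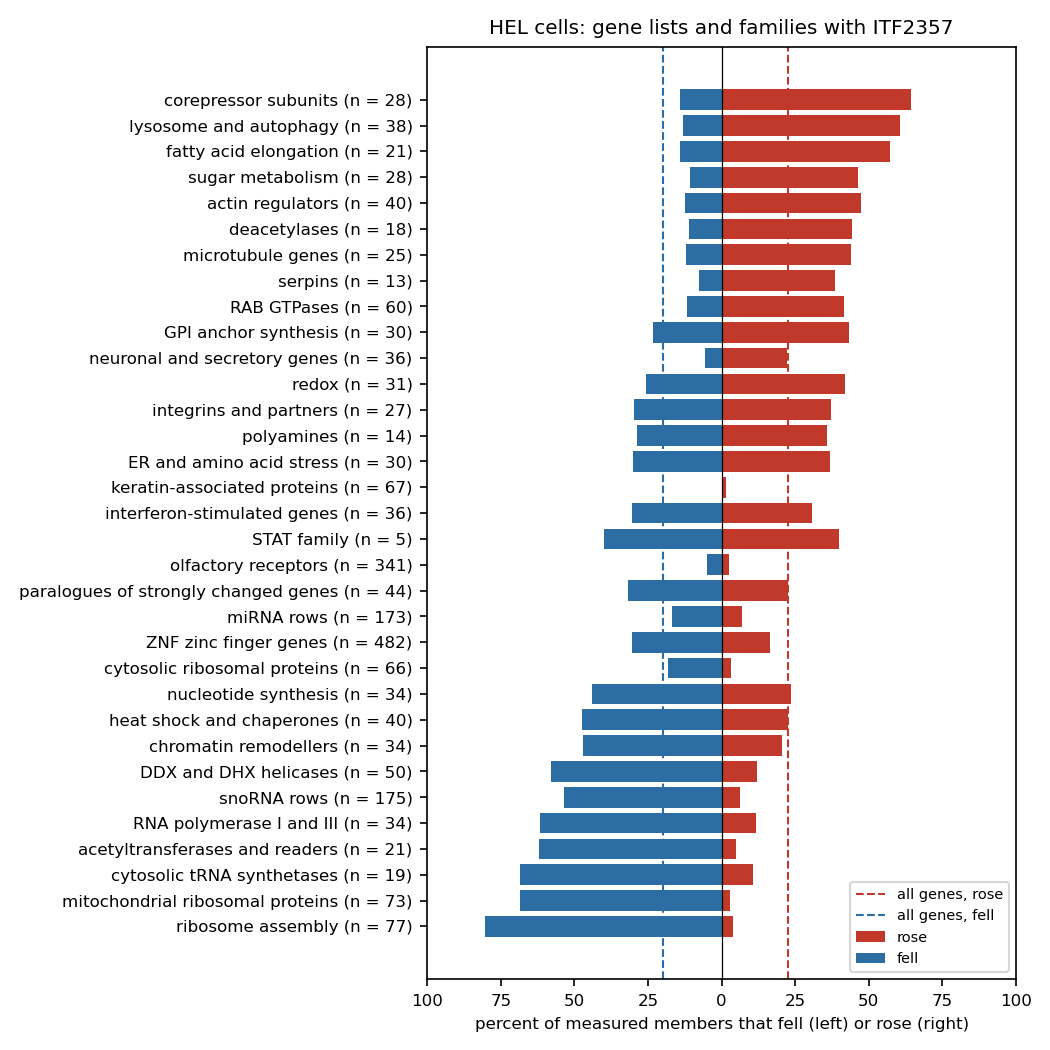
Percent of the measured members of each gene list, family or RNA class that rose (right, red) or fell (left, blue) in HEL cells with ITF2357; dashed lines mark the shares over all 18417 genes tested (22.6% and 19.9%), and n is the number of measured members. Corepressor subunits, lysosome and autophagy genes and fatty acid elongation extend furthest to the right, and ribosome assembly, mitochondrial ribosomal proteins and tRNA synthetases furthest to the left. The lists were chosen with earlier results of these data known, so the shares are a description.

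Of 11 zinc-dependent deacetylase genes, the family the drug is aimed at, 4 rose, 1 fell and 6 were not called, with a median log2 change of 0.01. Class II, with 6 of those genes, held 1 riser and no faller. Of the 7 sirtuins, which use NAD and are not inhibited by drugs of this kind, 4 rose and 1 fell. The shares over all genes were 22.6% and 19.9%. HDAC3, the catalytic subunit of NCOR/SMRT complexes, read 9.21, 9.18 and 9.05 without drug and 10.30, 10.26 and 10.37 with it and rose 2.24-fold (log2 change 1.16 ± 0.066, adjusted p = 1.33e-08). HDAC11, the sole class IV member, read 6.52, 6.45 and 6.38 without drug and 7.81, 7.61 and 8.02 with it, a change of 1.36 ± 0.096 (adjusted p = 8.56e-08). Neither gene had a treated array below any untreated one. HDAC1 (0.44) and HDAC5 (0.64) rose less. The sirtuins that rose were SIRT2 (0.71), SIRT3 (0.33), SIRT4 (0.43) and SIRT7 (0.31). The 2 fallers were SIRT1, with 9.16, 9.13 and 8.97 without drug and 8.34, 8.49 and 8.36 with it and a change of -0.69 ± 0.071, and HDAC8 at -0.20. The HDAC8 call was lost without treated replicate 2 or untreated replicate 1 (adjusted p = 0.0908 and 0.104). HDAC2, HDAC4, HDAC6, HDAC7, HDAC9 and HDAC10 were not called, with changes between -0.16 and 0.02.

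Among the subunits of the complexes that hold deacetylases, 18 of 28 rose (64.3%, against 22.6% of all genes) and 4 fell (14.3%, against 19.9%). Their median change was 0.24 against -0.01 over all genes. In the SIN3 complexes 7 of 10 rose and none fell. SAP130, a subunit of SIN3 complexes, read 8.68, 8.66 and 8.69 without drug and 9.66, 9.54 and 9.67 with it, and the scaffold SIN3A read 9.14, 9.12 and 9.07 without drug and 9.69, 9.78 and 9.86 with it. Both groups of arrays were apart in each, with changes of 0.95 ± 0.06 and 0.67 ± 0.06. SUDS3 rose by 0.65 and RCOR2, a CoREST subunit, by 0.80. All 3 measured subunits of NCOR/SMRT rose, and in CoREST and MIDAC 5 of 8 did. NuRD was divided, with 3 risers and 3 fallers among 7: MBD3 (-0.73), MTA2 (-0.58) and MTA1 (-0.33) fell. The other faller was REST (-0.19), the repressor of neuronal genes that recruits CoREST, whose call was lost without treated replicate 1, untreated replicate 2 or untreated replicate 3 (adjusted p up to 0.0871). In UKE1, 10 of the 28 rose and 8 fell. The difference was called for 8 members, SIN3A among them (-0.51, adjusted p = 6.57e-04).

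The enzymes and readers on the other side of the acetylation cycle moved the other way: 13 of 21 fell (61.9%, against 19.9% of all genes) and 1 rose (4.76%, against 22.6%). Their median change was -0.37. KAT5 (TIP60) read 9.23, 9.17 and 9.13 without drug and 7.97, 7.74 and 8.04 with it and fell 2.39-fold (log2 change -1.26 ± 0.086, adjusted p = 6.03e-08). KAT6B read 7.48, 7.75 and 7.41 without drug and 6.58, 6.52 and 6.54 with it, and the coactivator CREBBP read 9.08, 9.23 and 9.27 without drug and 8.31, 8.35 and 8.50 with it. Their treated arrays were all the lower ones, with mean changes of -1.0 and -0.81. EP300, the close relative of CREBBP, changed by -0.53, KAT8 by -0.72 and KAT2A by -0.47. Of the bromodomain readers 6 of 10 fell and none rose, with the largest fall in BRD9, at 8.66, 8.66 and 8.65 without drug and 7.50, 7.62 and 7.83 with it, a change of -1.01 ± 0.088 (adjusted p = 5.54e-07). The one riser of the list was HAT1, which acetylates newly made histones, at 0.27. Its call was lost without treated replicate 1 or 2 or untreated replicate 3 (adjusted p = 0.0602 to 0.138). In UKE1 12 of the 21 fell and 2 rose, and the difference was called for 4.

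**Figure D3:**
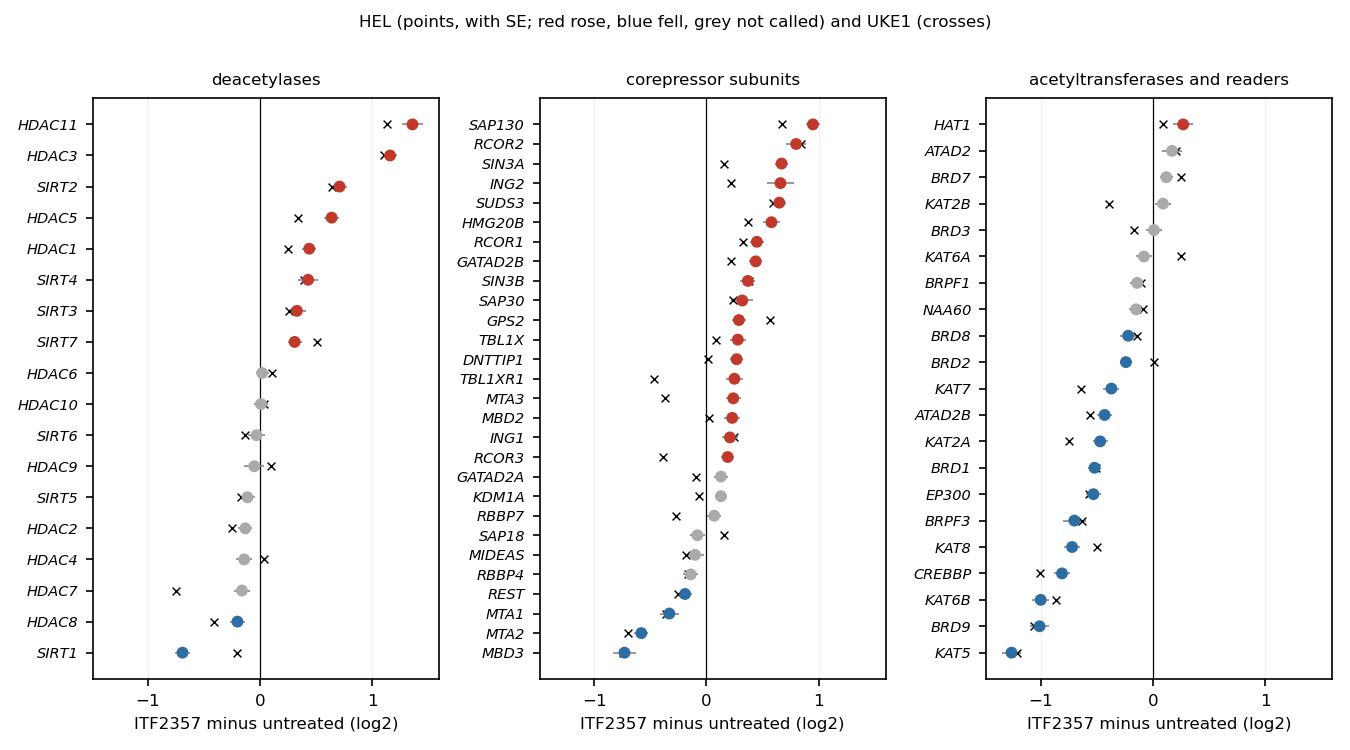
Log2 change with ITF2357 (x axis) of every measured deacetylase (left), corepressor subunit (middle) and acetyltransferase or bromodomain reader (right): points are HEL changes with their standard errors, red where the gene rose, blue where it fell and grey where it was not called, and crosses are UKE1 changes. HDAC11 and HDAC3 lie furthest to the right at 1.36 and 1.16, and KAT5 furthest to the left at -1.26.

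ATP-dependent remodellers, which slide or evict nucleosomes, fell more often than they rose, 16 against 7 of 34. These are 47.1% and 20.6%, against 19.9% and 22.6% of all genes, so only the share of fallers stood out. The median untreated level of the list was 9.27 and 67.6% of it was called. Of the 3684 genes of highest mean level 65.7% were called. In SWI/SNF 9 of 13 fell. The helicase SRCAP, which loads the histone variant H2A.Z, read 8.59, 8.59 and 8.78 without drug and 7.52, 7.46 and 7.74 with it, and INO80 read 9.15, 9.14 and 9.15 without drug and 8.15, 8.20 and 8.29 with it. Both fell, with changes of -1.08 ± 0.088 and -0.93 ± 0.055, without overlap of groups. BAZ1A, a partner of the ISWI motor SMARCA5, changed by -0.71. SMARCA5 itself read 10.86, 10.88 and 10.77 without drug and 11.13, 11.35 and 11.05 with it, a rise of 0.34 ± 0.074, so the pair of ISWI motors rose by very different amounts.

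Transcripts of the factors that build ribosomes fell broadly. Of 77 measured assembly factors 62 fell and 3 rose, against 19.9% and 22.6% of all genes, with a median change of -0.50 and 10 falls of at least 2-fold. Falls were spread over every stage: 29 of 36 in the small-subunit processome, 20 of 25 in large-subunit assembly, 7 of 9 among snoRNP proteins and 6 of 7 late small-subunit factors. After UTP20 came EMG1, a methyltransferase of 18S ribosomal RNA, which read 9.65, 9.49 and 9.51 without drug and 7.97, 7.97 and 8.15 with it, a change of -1.52 ± 0.071 (adjusted p = 2.75e-09). RRS1, which brings the 5S particle to the large subunit, read 9.80, 9.88 and 9.84 without drug and 8.43, 8.42 and 8.54 with it, and WDR43, a processome protein, read 11.25, 11.23 and 11.20 without drug and 10.00, 10.12 and 10.02 with it. In each the lowest untreated array was at least 1 log2 unit above the highest treated one, and the changes were -1.38 and -1.18. NVL, an ATPase that releases assembly factors, rose by 0.44 ± 0.062. The small rises of DDX52 (0.21) and RRP1B (0.19) were lost without treated replicate 2 or untreated replicate 3, and that of RRP1B also without treated replicate 3 or untreated replicate 2 (adjusted p up to 0.0817 and 0.121). In UKE1 59 of the 77 fell and 2 rose, and the difference was called for 20.

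The polymerases that make ribosomal and transfer RNA followed, with 21 of 34 genes falling and 4 rising (61.8% and 11.8%, against 19.9% and 22.6% of all genes). Of the RNA polymerase I genes 11 of 14 fell. POLR3D, a subunit of RNA polymerase III, read 9.12, 9.21 and 9.20 without drug and 7.91, 7.85 and 8.03 with it, and POLR1G, a subunit of RNA polymerase I, read 7.96, 7.69 and 7.89 without drug and 6.67, 6.75 and 6.90 with it. Every treated array was lower, with changes of -1.24 ± 0.064 and -1.08 ± 0.079. POLR1C, which both enzymes share, changed by -0.94, and the TFIIIC subunit GTF3C2 by -0.79. Against these, POLR3GL, the alternative form of a polymerase III subunit, read 6.68, 6.52 and 6.59 without drug and 7.41, 7.31 and 7.50 with it and rose by 0.81 ± 0.068. The TFIIIC subunit GTF3C1 rose by 0.48 and POLR1D by 0.25. The fourth riser, BRF1 at 0.15, lost its call without 4 of the single arrays (treated replicates 1 and 3, untreated replicates 1 and 2, adjusted p = 0.0943 to 0.15) and when scaled over tested genes.

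The ribosome's own proteins separated by compartment. Of 73 mitochondrial ribosomal protein genes 50 fell and 2 rose (68.5% and 2.74%, against 19.9% and 22.6% of all genes). Their median change was -0.32. Of 66 cytosolic ribosomal protein genes only 14 were called (12 lower and 2 higher), and the median was -0.01. These are 18.2% lower, near the 19.9% of all genes, and 3.03% higher, against 22.6%. The median untreated level was 9.06 in the mitochondrial set and 11.69 in the cytosolic set. MRPL15, chosen after its values were seen, read 9.33, 9.29 and 9.38 without drug and 8.33, 8.25 and 8.36 with it and changed by -1.02. Among the cytosolic set the largest fall was in RPL22L1, a paralogue of RPL22, at 7.86, 7.78 and 7.87 without drug and 6.84, 6.83 and 6.90 with it (-0.98). DEAD- and DEAH-box RNA helicases, many of them assembly factors, fell in 29 of 50 cases and rose in 6 (58% and 12%).

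Of the cytosolic tRNA synthetases, which load amino acids onto tRNA, 13 of 19 fell and 2 rose, with a median change of -0.39. These are 68.4% and 10.5%, against 19.9% and 22.6% of all genes. YARS1 (-0.62), FARSB (-0.61), TARS1 (-0.56) and IARS1 (-0.55) had the smallest adjusted p-values. For IARS1 the arrays read 11.40, 11.44 and 11.33 without drug and 10.81, 10.88 and 10.83 with it, so that even a change of this size left a gap between the groups. The small rises of QARS1 and RARS1 (0.19 and 0.19) each lost their call without 4 or 5 of the single arrays. Only untreated replicate 2 and treated replicate 2 could be left out for QARS1, and untreated replicate 1 for RARS1 (adjusted p otherwise 0.0584 to 0.175).

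Small nucleolar RNAs, the guides for modifying ribosomal RNA, fell as well. Of 175 snoRNA rows 94 fell and 11 rose (53.7% and 6.29%, against 19.9% and 22.6% of all genes). At least 2-fold falls were seen for 29 of them, against 1.36% of all genes. SNORD51 read 7.35, 7.26 and 7.09 without drug and 5.09, 5.40 and 5.37 with it, SNORD82 8.07, 7.98 and 8.13 without drug and 6.35, 6.18 and 5.93 with it, SNORD105 7.97, 7.82 and 8.06 without drug and 6.03, 6.04 and 6.25 with it and SNORD20 6.88, 7.08 and 6.89 without drug and 5.48, 4.85 and 4.67 with it. SNORD20 was the most scattered after treatment, yet its highest treated array was still below its lowest untreated one. All of the fallers lay outside the imprinted SNORD115 and SNORD116 clusters. Of the 135 rows outside, 4 rose and 94 fell, with a median change of -0.46 and a median untreated level of 8.09. Of the 40 rows inside, 7 rose and none fell, with a median change of 0.08, but their median untreated level was 2.94, and in the 3684 genes of lowest mean level only 9.15% were called. Copies within those clusters are nearly identical, so their rows are not independent.

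Most snoRNAs are cut from introns of host genes. Here a host is any tested gene whose RefSeq span holds the snoRNA, and strand and intron position were not checked. For 81 rows exactly 1 such gene was measured, and some of these genes may only overlap the snoRNA. Of 55 such snoRNAs that fell, the host fell for 31, was not called for 23 and rose for 1. Over all 81 rows, 24 uncalled snoRNAs included, the median change was -0.46 for the snoRNAs and -0.11 for their hosts, and 63 of the 81 snoRNAs lay below their host in change. The median untreated level was 7.83 for the snoRNA rows and 10.61 for the host rows. SNORD20 and SNORD82 lie in nucleolin, NCL, which read 12.52, 12.41 and 12.42 without drug and 11.97, 12.04 and 11.96 with it and changed by -0.46. Of 17 snoRNAs in genes of cytosolic ribosomal proteins 15 fell, with a median of -0.68, while 1 of their 11 hosts was called. The snoRNA and host rows are separate measurements on the same arrays. They share those arrays and their labelling, and total RNA was measured, so precursors and mature forms are not told apart.

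**Figure D4:**
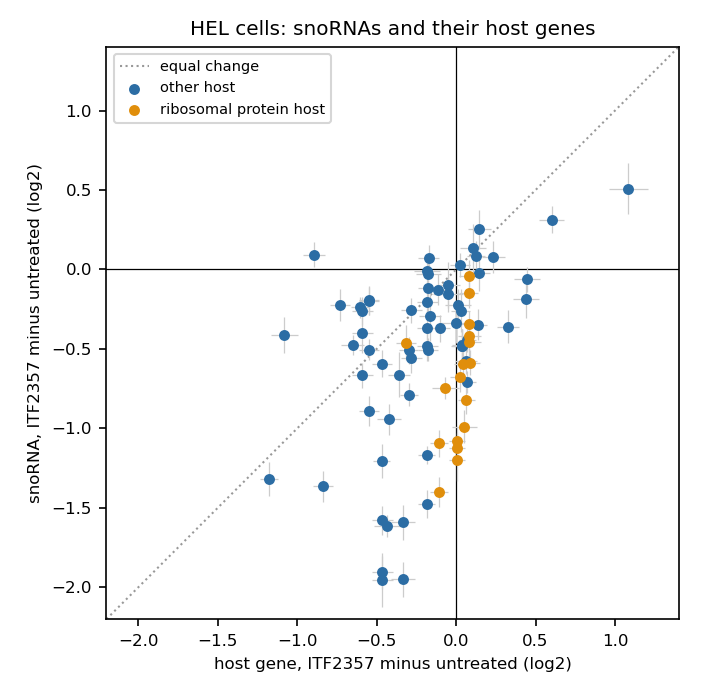
Log2 change with ITF2357 of 81 snoRNA rows (y axis) against that of their host (x axis) in HEL cells, with standard errors. A host is the single measured gene whose span holds the snoRNA, with strand and intron position not checked. Orange points have a ribosomal protein gene as host, and the dotted line marks equal change. Most points lie below the dotted line, and the orange ones lie near 0 on the x axis and down to -1.40 on the y axis.

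MicroRNAs repress messenger RNAs through a seed, bases 2 to 8, which defines families. Of 173 miRNA rows 29 fell and 12 rose (16.8% and 6.94%, both below the shares of all genes). Their median untreated level was 5.04, against 7.01 over all genes. Of the 3684 genes of lowest mean level 9.15% were called, and of the 3683 next 22.3%, against 23.7% of the miRNA rows. A mature sequence was found in RefSeq for 164. The rows name genes and not mature arms, so the changes are those of the miRNA gene's transcripts, precursors included. These 4 sets carry the result and are printed 5′ to 3′ with the seed in capitals: the 2 strongest fallers, which are myeloid and blood-cell miRNAs, the family of seed AAAGUGC, the family of seed GAGGUAG (let-7) and that of seed AGCAGCA, with members that fell and members that were not called.
miR-223-3p: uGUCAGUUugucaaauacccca
miR-142-3p: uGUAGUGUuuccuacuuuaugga
miR-17-5p: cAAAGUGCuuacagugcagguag
miR-20a-5p: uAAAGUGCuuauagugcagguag
miR-93-5p: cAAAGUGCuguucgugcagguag
miR-106b-5p: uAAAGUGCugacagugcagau
let-7f-5p: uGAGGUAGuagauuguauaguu
let-7i-5p: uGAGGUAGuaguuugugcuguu
let-7c-5p: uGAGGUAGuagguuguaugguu
miR-15a-5p: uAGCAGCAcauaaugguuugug
miR-15b-5p: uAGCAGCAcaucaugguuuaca
miR-16-5p: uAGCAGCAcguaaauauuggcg

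MIR223, which restrains granulocyte expansion, read 10.22, 10.38 and 10.34 without drug and 8.30, 8.46 and 8.44 with it and changed by -1.91 ± 0.086 (adjusted p = 2.26e-09). MIR142, abundant in all blood cells, read 8.16, 8.19 and 8.25 without drug and 6.87, 7.0 and 6.97 with it and changed by -1.25 (this and the miRNAs below were chosen after their values were seen). In both, all treated arrays were lower. The host transcript of miR-17 and miR-20a, MIR17HG, read 9.56, 9.56 and 9.49 without drug and 7.80, 7.71 and 7.72 with it, a change of -1.79 ± 0.058 (adjusted p = 4.87e-10); the 6 miRNAs of that cluster have no row of their own here. MIR93 and MIR106B, which share the seed, lie in an intron of the replication gene MCM7. They changed by -0.80 and -0.33, and MCM7 by -0.51. The only other row with that seed, MIR106A, was not called (-0.02). Of 5 rows with the seed AGCAGCA 3 fell and 2 were not called. MIR15B read 5.18, 5.51 and 5.55 without drug and 4.48, 4.36 and 4.91 with it and changed by -0.84. Its neighbour MIR16-2 changed by -0.40, a call lost without treated replicate 2 (adjusted p = 0.0514), while their host SMC4 was not called, at -0.09. MIR195 changed by -0.41, a call lost without treated or untreated replicate 3 (adjusted p up to 0.15). MIR15A read 7.88, 7.79 and 7.59 without drug and 8.05, 7.77 and 7.69 with it, and MIR16-1, whose mature miR-16-5p has the sequence printed, read 3.49, 3.18 and 3.67 without drug and 3.65, 3.46 and 3.59 with it. Their groups overlapped, with changes of 0.08 and 0.12.

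Of 10 rows with the let-7 seed 6 fell, from -0.76 in MIRLET7F1 to -0.35 in MIRLET7G, and MIRLET7C rose by 0.65. Over all genes 19.9% fell, but this family was picked after its values were seen. MIRLET7A2 (-0.13), MIRLET7F2 (-0.08) and MIR98 (-0.01) were not called. MIRLET7C read 4.12, 3.64 and 3.90 without drug and 4.41, 4.24 and 4.95 with it, so its treated arrays were scattered but all above the untreated ones. The let-7 genes share most of their mature sequence, and their probes may detect more than one of them. Among the risers MIR181A1 read 4.43, 4.32 and 4.47 without drug and 5.25, 5.34 and 5.31 with it and its cluster partner MIR181B1 7.86, 8.03 and 7.67 without drug and 8.43, 8.47 and 8.56 with it, with changes of 0.89 and 0.64 and no overlap of groups. MIR221 rose by 0.43 in HEL and changed by -1.12 in UKE1, where it fell; the difference was -1.55 (adjusted p = 4.61e-06).

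Of 34 genes of nucleotide synthesis 15 fell (44.1%, against 19.9% of all genes) and 8 rose (23.5%, close to the 22.6% of all genes). Their median untreated level was 9.35 and 67.6% were called, near the 65.7% of the 3684 genes of highest mean level. In the pyrimidine pathway 5 of 6 fell. CTPS1, which makes CTP, read 10.54, 10.53 and 10.56 without drug and 9.03, 9.01 and 9.13 with it and fell 2.8-fold (log2 change -1.48 ± 0.061, adjusted p = 1.74e-09). CAD, which carries the first 3 steps of pyrimidine synthesis, read 9.06, 9.15 and 9.39 without drug and 7.86, 7.99 and 8.13 with it, and ATIC, which carries the last steps of purine synthesis, read 10.17, 10.06 and 10.19 without drug and 9.04, 8.95 and 9.07 with it. They changed by -1.21 and -1.12, with no overlap of groups. In the opposite direction SAMHD1, which breaks deoxynucleotides down, read 7.29, 7.26 and 7.25 without drug and 8.86, 8.89 and 8.94 with it and rose 3.1-fold (log2 change 1.63 ± 0.073, adjusted p = 2.24e-09). Its rise was larger in UKE1, at 2.52 (difference 0.88, adjusted p = 4.23e-05).

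Polyamine genes were mixed. Of 7 synthesis genes 3 fell and 1 rose, and of 7 genes of breakdown and inhibition 4 rose and 1 fell. SRM, spermidine synthase, read 10.93, 10.83 and 10.97 without drug and 9.56, 9.57 and 9.73 with it, and ODC1, the first enzyme of the pathway, read 12, 11.98 and 12.12 without drug and 11.42, 11.41 and 11.45 with it. Both fell, with changes of -1.29 ± 0.067 and -0.61 ± 0.057. OAZ2, an antizyme that directs ODC1 to the proteasome, read 8.04, 8.05 and 7.95 without drug and 9.55, 9.45 and 9.53 with it, and SMOX, which oxidizes spermine, read 8.88, 8.80 and 8.91 without drug and 10.15, 10.16 and 10.34 with it. Both rose, by 1.5 ± 0.064 and 1.35 ± 0.069, and in these 4 genes the groups did not overlap. PAOX, another oxidase, went the other way at -0.47. DOHH, which hydroxylates a translation factor already modified with spermidine, changed by -0.22. This call was lost without treated replicate 2 or untreated replicate 3 (adjusted p = 0.098 and 0.0612). In all, 5 of 14 rose and 4 fell; 3 rose with any one of these arrays left out: treated replicate 1, untreated replicate 2 or untreated replicate 3.

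The redox genes, GLRX included, showed 13 risers and 8 fallers among 31 (41.9% and 25.8%, against 22.6% and 19.9% of all genes). Their median untreated level was 9.86 and 67.7% were called, near the 65.7% of the 3684 genes of highest mean level. No peroxiredoxin or glutathione gene changed 2-fold; MGST3, a membrane glutathione transferase, rose by 0.93. Of the 6 peroxiredoxins 4 rose and 2 fell, and of the 10 glutathione genes 3 rose and 3 fell. The NRF2 targets HMOX1 and NQO1 fell, and whether the output of NRF2 changed was not tested. HMOX1, which degrades haem, read 9.58, 9.60 and 9.72 without drug and 8.37, 8.24 and 8.55 with it and fell 2.37-fold (log2 change -1.24 ± 0.076, adjusted p = 2.46e-08), and NQO1, a quinone reductase, read 7.63, 7.52 and 7.53 without drug and 6.50, 6.26 and 6.34 with it and changed by -1.19 ± 0.10. All treated arrays were below all untreated arrays in both. In UKE1 HMOX1 rose instead, by 0.41 (difference 1.65, adjusted p = 3.32e-07).

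Fatty acid elongation and its partner enzymes rose in 12 of 21 cases and fell in 3, with a median change of 0.37. These are 57.1% and 14.3%, against 22.6% and 19.9% of all genes. ELOVL5, which elongates polyunsaturated fatty acids, read 11.29, 11.22 and 11.22 without drug and 11.89, 11.94 and 11.90 with it and rose by 0.67 ± 0.054. ACSL1, which activates fatty acids, rose by 0.62, while its relatives ACSL5 (-0.80) and ACSL4 (-0.40) fell, as did ELOVL7 (-0.28). For ACSL5 the arrays read 9.56, 9.46 and 9.29 without drug and 8.56, 8.58 and 8.76 with it, with no overlap.

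Sugar metabolism leaned upward as well, 13 of 28 genes up and 3 down (46.4% and 10.7%, against 22.6% and 19.9% of all genes). All 4 galactose genes rose. The muscle phosphofructokinase PFKM read 8.0, 8.05 and 7.94 without drug and 9.18, 9.10 and 9.27 with it, and the neuronal enolase ENO2 read 9.40, 9.31 and 9.39 without drug and 10.49, 10.55 and 10.66 with it. Both rose more than 2-fold, by 1.18 and 1.20. SLC2A3, a high-affinity glucose transporter, rose by 0.88. The platelet phosphofructokinase PFKP fell, at 8.87, 8.85 and 8.93 without drug and 8.55, 8.57 and 8.62 with it (-0.31 ± 0.058), so the muscle and platelet forms moved in opposite directions. RPIA of the pentose phosphate pathway fell by 0.64 and hexokinase HK2 by 0.27; the latter call was lost without treated or untreated replicate 2 (adjusted p = 0.0666 and 0.08).

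Lysosome and autophagy genes were among the lists with the most risers, 23 of 38 with 5 fallers and a median change of 0.34. These are 60.5% and 13.2%, against 22.6% and 19.9% of all genes. ATG2A, which moves lipids to the growing autophagosome, read 7.34, 7.27 and 7.29 without drug and 8.37, 8.32 and 8.60 with it, and GLA, a lysosomal galactosidase, read 7.52, 7.34 and 7.41 without drug and 8.57, 8.49 and 8.51 with it. The proton pump subunit ATP6V1A read 10.25, 10.25 and 10.22 without drug and 11.22, 11.29 and 11.24 with it. Treated arrays were higher throughout, and the changes were 1.13, 1.10 and 1.01. ATP6V1H, another subunit of that pump, rose by 0.71. The fallers were ATG7 (-0.38), BECN1 (-0.35), CTSA (-0.23), ATG12 (-0.29) and CTSZ (-0.21). The last 2 lost their calls with single arrays left out (ATG12 without treated replicate 1 or 3 or untreated replicate 1, CTSZ without any of the 6, adjusted p up to 0.23 and 0.156), and 3 fallers were left without treated replicate 1 or 3 or untreated replicate 1. Of the GPI anchor genes, which include PIGW, 13 of 30 rose and 7 fell (11 fell after quantile scaling over tested genes). In the deposited values these were 43.3% and 23.3%, against 22.6% and 19.9% of all genes. MPDU1, needed to use mannose donors, changed by -1.19, PIGU by -0.78 and PGAP1, which removes the acyl chain that PIGW adds, by 1.10.

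Cytoskeletal genes rose more often than they fell. Of 40 actin regulators 19 rose and 5 fell (47.5% and 12.5%, against 22.6% and 19.9% of all genes). Among bundling proteins and tropomyosins 8 of 11 rose and none fell. VCL, vinculin of focal adhesions, read 8.20, 8.38 and 8.25 without drug and 9.64, 9.63 and 9.71 with it, and LCP1, the bundling protein L-plastin of blood cells, read 11.09, 11.10 and 10.96 without drug and 12.32, 12.31 and 12.29 with it. They rose by 1.38 ± 0.065 and 1.26 ± 0.057, with wide gaps between groups. The fallers were small changes: CAPZA1 (-0.53), ACTR3 (-0.21), CFL2 (-0.30), PFN1 (-0.20) and WAS (-0.19). The calls of CFL2, PFN1 and WAS were lost without treated replicate 1 (adjusted p = 0.103, 0.0509 and 0.0599), which left 2 fallers, and 3 were left without untreated replicate 2. CFL2 also lost its call without treated replicate 3 or untreated replicates 1 or 2, PFN1 without untreated replicate 3 and WAS without any array but treated replicate 3 (adjusted p up to 0.121, 0.0511 and 0.166). Of 25 microtubule genes 11 rose and 3 fell (44% and 12%, against 22.6% and 19.9% of all genes). MAP1B, which stabilizes microtubules in neurons, read 7.66, 7.71 and 7.77 without drug and 8.86, 8.92 and 8.92 with it, and MAPRE2, which tracks growing ends, read 9.98, 9.86 and 9.85 without drug and 10.87, 10.85 and 10.84 with it. Both rose, by 1.19 and 0.96, as did TUBA1A (0.95). TUBB1, the platelet tubulin, read 8.82, 8.85 and 8.76 without drug and 8.22, 8.02 and 8.01 with it and fell by 0.73. TUBA1C fell by 0.37, and the fall of TUBB by 0.16 was lost without treated replicate 1 or 2 or untreated replicate 1 or 3 (adjusted p up to 0.116).

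Among 36 synaptic and neuroendocrine genes 8 rose and 2 fell, which for risers is close to the 22.6% of all genes. The synaptic vesicle protein SV2A read 9.21, 9.27 and 9.30 without drug and 10.51, 10.67 and 10.63 with it, a rise of 1.34 ± 0.078. SYT11 rose by 1.01, DPYSL2 by 0.93 and SYP by 0.89. The 2 fallers, VAMP2 and CPLX2 (both -0.18), lost their calls without treated replicate 1 or untreated replicate 3 (adjusted p = 0.0518 to 0.0782), and CPLX2 also without treated replicate 3 or untreated replicate 1 or 2 (up to 0.164). Of 13 serpins 5 rose and 1 fell. SERPINI1, neuroserpin, read 5.70, 5.38 and 5.52 without drug and 6.91, 6.89 and 7.22 with it, a rise of 1.48 ± 0.10 that was larger in UKE1 (2.85). SERPINE2 and SERPING1 rose by 0.38 and 0.27, and SERPINH1, a chaperone of collagen, fell by 0.38.

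Protein-folding genes leaned downward. Of 40 chaperone and heat shock genes 19 fell (47.5%, against 19.9% of all genes) and 9 rose (22.5%, against 22.6%), and of the HSP90 and chaperonin members 8 of 13 fell and none rose. The whole list had a median untreated level of 9.79 and 70% of it was called, against 65.7% of the 3684 genes of highest mean level. CCT5, a chaperonin subunit, read 11.33, 11.23 and 11.26 without drug and 10.64, 10.68 and 10.61 with it, a change of -0.64 ± 0.056 (adjusted p = 5.90e-07). The co-chaperones DNAJB4 and BAG3 went the other way, at 8.85, 8.46 and 8.48 without drug and 9.59, 9.71 and 9.67 with it for DNAJB4 and 7.75, 7.47 and 7.40 without drug and 8.52, 8.39 and 8.43 with it for BAG3. They rose by 1.06 and 0.90, as did IFT25 (HSPB11) by 0.63. Genes of the unfolded protein response and the ATF4 pathway were mixed, 11 up and 9 down of 30, with HERPUD1 (0.58), SESN2 (0.73), VLDLR (0.64) and CEBPG (-0.64) showing the smallest adjusted p-values. HERPUD1, a factor of degradation at the endoplasmic reticulum, read 10.06, 10.00 and 9.93 without drug and 10.56, 10.57 and 10.61 with it in HEL and changed by -0.32 in UKE1, a difference of -0.90 (adjusted p = 4.26e-06).

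Interferon-stimulated genes moved in both directions in HEL, 11 up and 11 down of 36, while in UKE1 5 rose and 21 fell. The difference was called for 19 of the 36, against 23.9% of all genes. BST2 (tetherin), which holds budding virus at the membrane, read 5.29, 5.50 and 5.19 without drug and 6.77, 6.97 and 7.13 with it and rose 3.09-fold (log2 change 1.63 ± 0.11, adjusted p = 5.87e-08). IFIT1, which binds foreign RNA ends, read 5.98, 5.90 and 5.79 without drug and 6.76, 6.73 and 6.96 with it and rose by 0.93 ± 0.073, against -0.87 in UKE1 (difference -1.79, adjusted p = 1.48e-07). HERC5, the ligase for the ubiquitin-like ISG15, rose by 0.94. RSAD2, of the same group, fell in both lines (-1.74 in HEL and -1.70 in UKE1). Of the 5 STAT genes measured, STAT4 and STAT6 rose, and STAT5A (10.68, 10.70 and 10.75 without drug and 9.64, 9.65 and 9.79 with it) and STAT5B (10.08, 10.09 and 10.07 without drug and 9.54, 9.49 and 9.62 with it), the transducers of JAK2 signals, fell by 1.01 and 0.53. The rise of STAT6 (0.23) was lost without treated replicates 2 or 3 or untreated replicates 1 or 2 (adjusted p up to 0.0949).

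Integrins and their partners were mixed, 10 up and 8 down of 27 (37% and 29.6%, against 22.6% and 19.9% of all genes). The order turned to 7 up and 8 down without untreated replicate 1 or 3 and under median centring over tested genes. The median untreated level of the list was 8.96 and 66.7% of it was called, near the 65.7% of the 3684 genes of highest mean level. ITGA6, which binds laminin, read 6.97, 6.70 and 6.90 without drug and 8.19, 8.16 and 8.25 with it, and FERMT3 (kindlin-3), which activates platelet integrins, read 11.54, 11.50 and 11.49 without drug and 10.55, 10.44 and 10.66 with it. The first rose by 1.34 ± 0.069 and the second fell by 0.96, with no overlap of groups. ITGB7 rose by 0.89. CD9, an integrin partner, read 7.62, 7.62 and 7.68 without drug and 8.49, 8.44 and 8.56 with it; it rose by 0.86 in HEL and changed by -0.46 in UKE1 (difference -1.31, adjusted p = 3.74e-07).

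Close relatives of the strongly changed genes often did not share their change. Of 44 genes in 10 small families 10 rose, 14 fell and 20 were not called; since these families include the strongly changed genes themselves, those counts are a description. Next to DENND2C at 2.48, DENND2D read 9.30, 9.21 and 9.20 without drug and 7.92, 7.99 and 8.05 with it and fell by 1.25, DENND2B was not called (-0.01), and DENND2A fell by 0.18, a call lost without any single array except untreated replicate 2 (adjusted p up to 0.174). Of the profilins PFN3 and PFN4 were not called, at -0.09 and -0.28. Of 9 keratin relatives of KRT79, KRT73 fell by 0.39, and KRT71, KRT72, KRT74, KRT75, KRT76, KRT77, KRT78 and KRT80 were not called, with changes from -0.27 to 0.27.

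Other families went partly together. LANCL3 read 9.48, 9.58 and 9.50 without drug and 8.78, 8.86 and 8.78 with it and fell by 0.72 beside LANCL2. The lectin ITLN2 read 8.55, 8.26 and 8.34 without drug and 6.69, 6.65 and 6.74 with it and ITLN1 8.11, 8.03 and 7.91 without drug and 7.55, 7.41 and 7.59 with it, and both fell, by 1.69 and 0.50. Their UKE1 changes were -0.01 and 0.0. Of the phospholipases D, PLD1, PLD2 and PLD3 rose (0.63, 0.95 and 0.30), PLD6 fell, and PLD4 and PLD5 were not called (-0.07 and 0.25). TGM2, tissue transglutaminase, read 9.69, 9.72 and 9.65 without drug and 10.59, 10.55 and 10.70 with it and rose by 0.93 ± 0.063 while TGM5 fell. The changes of TGM3, TGM4, TGM6, TGM7 and F13A1 lay between -0.08 and 0.06 and were not called. TGM1 changed by -0.25; 1 treated array overlapped the untreated ones, and the call was lost without treated replicates 1 or 3 or untreated replicates 2 or 3 (adjusted p up to 0.171). In the SREB receptors GPR27 was not called (-0.12), and GPR173 rose by 0.32, a call lost without treated replicates 2 or 3 or untreated replicate 3 (up to 0.0838). In the family of ARHGAP29, GMIP fell by 0.36 and ARHGAP45 was not called (0.13).

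**Figure D5:**
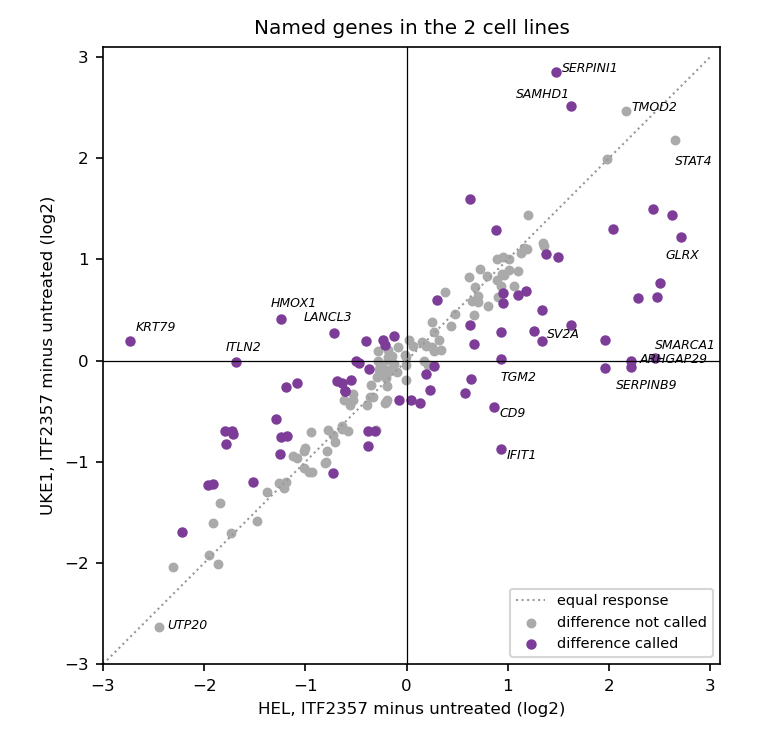
Log2 change with ITF2357 in UKE1 (y axis) against HEL (x axis) for the 183 genes named by rule, with purple points where the difference between the lines was called and grey points where it was not; the dotted line marks equal responses. Many points follow the dotted line, while KRT79, SMARCA1, ARHGAP29 and SERPINB9 lie near 0 on the y axis.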

How the data were processed

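RNA of HEL cells, 3 samples with ITF2357 and 3 without, and of the 6 UKE1 samples was measured on arrays. The authors deposited log2 values made with Affymetrix Expression Console and RMA, per the submitters' processing notes; software versions and a genome build were not given in the sources used here. Base 2 was read from the range (1.26 to 14.36). Replicate numbers were not used to pair the samples in the main fit. Of 33297 rows, the 19460 with 1 gene symbol gave 18417 genes, each by the row of highest mean (769 had several); 1754 rows with several symbols and 12083 with none were left out. Gene IDs of 19429 rows matched RefSeq GRCh38.p14.

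One mean per group was fitted to all 12 arrays with limma 3.58.1 (R 4.3.3; 8 residual degrees of freedom), with two-sided tests, Benjamini-Hochberg adjustment over 18417 genes and a threshold of 0.05. With 3 against 3 samples an exact permutation test cannot go below 0.1. P-values measure only the spread between these samples. The array number limits the precision, and no detection flags exist.

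The 24 gene lists (765 members, 717 measured), families and members were chosen with earlier results of these data known. Named were the 15 largest changes each way with groups apart, from each list up to 4 called members (those of smallest adjusted p), members against a list's majority where 5 or fewer, and all measured members of the paralogue families (183 genes). Other genes, all miRNAs but MIR223 and MIR17HG among them, were named after their values were seen. Alternatives were other scalings, filters, HEL arrays alone, a replicate block and leaving out each array.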

Additional observations from a re-analysis of the deposited data

Results flagged for a closer look

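The difference between the responses of the lines (UKE1 minus HEL, log2) passed an adjusted p of 0.05 in limma for 75 of the 183 genes named by rule. Over all genes it was called for 23.9%. Many of the 183 were named for a large or clear change in HEL, so differences from UKE1 are in part a consequence of that choice. Of the 75, 61 were called in each leave-one-out fit. All 75 are given here, with the difference in brackets. No cause was tested, and medium as well as line differs between the groups.

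Genes that rose in HEL and did so less, or were not called or lower, in UKE1 were led by SMARCA1 (-2.42), SERPINB9 (-2.29), ARHGAP29 (-2.22), FCGR2B (-2.02), DENND2C (-1.85), TNFRSF10B (-1.75), GALM (-1.74) and PFN2 (-1.67). ARHGAP29 had a low mean of 2.93 in both UKE1 groups, and whether it was expressed there was not tested. Smaller differences of this kind were those of GLRX (-1.49), BST2 (-1.28), ELOVL4 (-1.18), SV2A (-1.15), LCP1 (-0.96), TMEM243 (-0.94), TGM2 (-0.90) and ITGA6 (-0.85). They continued with VLDLR (-0.82), SGTB (-0.74), DPYSL2 (-0.65), SIN3A (-0.51), PFKM (-0.49), OAZ2 (-0.48), GLA (-0.45) and TUBA1A (-0.37). The smallest were those of QARS1 (-0.33), VCL (-0.33), SERPING1 (-0.32), SAP130 (-0.28) and IFT25 (-0.27). Glutaredoxin, an elongase, a profilin and a chromatin motor thus stood beside cell-surface receptors such as FCGR2B, ITGA6 and the death receptor TNFRSF10B.

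Genes that fell in HEL and did so less, or were not called, in UKE1 began with ITLN2 (1.68), MIR17HG (1.10), PLD6 (1.03), LANCL3 (0.99), TGM5 (0.99), GP6 (0.96) and NQO1 (0.93). Next came POLR1G (0.86), SNORD20 (0.73), SRM (0.71), MIR223 (0.69), GPR85 (0.54), ITLN1 (0.51) and SIRT1 (0.49). Further down were POLR3D (0.48), PAOX (0.45), WDR43 (0.43), CEBPG (0.42), CTSZ (0.36), IARS1 (0.36) and DENND2D (0.33). The smallest were those of EMG1 (0.31), FARSB (0.31), ODC1 (0.30) and TUBA1C (0.29).

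The change was in the same direction and larger in UKE1 for SERPINI1 (1.37), PLD1 (0.97), SAMHD1 (0.88), SERPINH1 (-0.47) and SLC2A3 (0.41). The same held for PFKP (-0.39), TUBB1 (-0.39), ATG7 (-0.32) and PLD3 (0.30). Genes called in opposite directions in the 2 lines were KRT79 (2.92), IFIT1 (-1.79), HMOX1 (1.65), CD9 (-1.31), HERPUD1 (-0.90), ACSL4 (0.59), STAT6 (-0.52) and CTSA (0.43). Of these KRT79, HMOX1 and ACSL4 fell and IFIT1, CD9 and HERPUD1 rose in HEL. Genes not called in HEL but with a called difference were ARHGAP45 (-0.55), F13A1 (-0.44), GPR27 (0.37) and PLD4 (-0.32).

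The difference lost its call without single HEL arrays for 14 genes. These were ATG7, CTSZ, DENND2D, EMG1, FARSB, IFT25, ITLN1, PLD3, PLD4, SAP130, SNORD20, TUBA1A, TUBA1C and TUBB1, with adjusted p-values between 0.0507 (ITLN1, without treated replicate 2) and 0.11 (TUBA1A).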

How the results depend on the processing

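The 6 counts that the comparisons rest on (genes called in HEL, higher, lower, at least 2-fold higher, at least 2-fold lower, and differences between the lines) stayed within 1.5 times their values under all alternatives run. The scalings over tested genes alone were added after seeing the data. Genes called in HEL numbered 7197 to 7477 with 1 array left out and 7050 to 8225 under the other settings, against 7816, and differences between lines 3881 to 4245 and 3899 to 4922, against 4395. At least 2-fold increases numbered 344 to 469 and decreases 221 to 288 over the other settings. Of the 163 named genes called in HEL, none changed sign under the scalings; 22 lost the call in at least 1 leave-one-out fit. Deviations of same-numbered treated and untreated samples from their group means correlated at -0.09, 0.06 and 0.03 in HEL and at 0.03 each in UKE1. Those of differently numbered samples ran from -0.14 to 0.09 in HEL and from -0.03 to -0.003 in UKE1. With 3 samples a group these small values cannot settle whether the numbers pair the samples. With the replicate block 7590 genes were called and 10 named genes lost their call. Where rows dim on every array were left out, 10796 genes remained, 7050 of them called, and of the miRNA rows 2 rose and 9 fell. Background was not measured, and calls varied with level: among the 3684 genes of lowest mean level 9.15% were called, and among the 3684 of highest level 65.7%.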

Other observations

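Families set by symbol, and the genes named from them after their values were seen, add the following. Of 60 RAB GTPases, the switches of vesicle traffic, 25 rose and 7 fell, against 22.6% and 19.9% of all genes. RAB8B, which serves transport to the cell surface, read 9.14, 9.16 and 8.95 without drug and 10.74, 10.79 and 10.67 with it and rose by 1.65, and RAB3D rose by 1.26 and RAB23 by 1.17. RAB27B, which serves granule release in platelets, read 11.98, 12.10 and 11.90 without drug and 11.15, 11.18 and 11.10 with it and changed by -0.85. In these 4 genes no treated array crossed an untreated one. Zinc finger genes with a ZNF symbol fell more often than they rose, 147 against 80 of 482 (30.5% and 16.6%, against 19.9% and 22.6% of all genes). ZNF217, a corepressor-associated factor, rose by 1.47, and ZNF573 changed by -1.25. MYCN, a relative of MYC, read 9.34, 9.02 and 9.28 without drug and 7.70, 7.58 and 7.85 with it, a change of -1.5.

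Families of tissues far from blood mostly stayed uncalled: 26 of 341 olfactory receptors (7.62%) and 1 of 67 keratin-associated proteins (1.49%) passed the threshold, against 42.4% of all genes. Their median untreated levels were low, at 4.14 and 5.74. Of the 3684 genes of lowest mean level 9.15% were called, and of the 3683 next 22.3%, so the olfactory share is near that of dim rows. Of 27 bitter and sweet taste receptors 10 fell and 1 rose (37% and 3.7%, against 19.9% and 22.6% of all genes). TAS2R14 read 6.24, 6.10 and 6.29 without drug and 5.59, 5.60 and 5.66 with it, TAS2R19 6.09, 6.17 and 6.09 without drug and 5.46, 5.45 and 5.06 with it and TAS2R10 5.67, 6.07 and 5.67 without drug and 5.22, 5.27 and 5.25 with it, with changes of -0.59, -0.79 and -0.56. All 3 lie in the bitter receptor cluster that also holds salivary proline-rich protein genes, of which PRH2 and PRB3 were not called (-0.20 and -0.21). The sequences of these receptors are close to each other, so their rows are not independent. Without rows dim on every array, 3 of the taste receptors fell.

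Some strong risers were next-door neighbours in the RefSeq gene order. Of 431 protein-coding genes that rose at least 2-fold, 33 (7.66%) stood beside another such gene, in 17 pairs, against 4.99% of all protein-coding genes that stood beside one. Of 212 that fell at least 2-fold, 6 (2.83%) stood in 3 pairs, against 2.47% of all. The sets were not tested. GLRX lies beside ELL2, which read 9.50, 9.39 and 9.37 without drug and 10.52, 10.52 and 10.39 with it (1.05), ARHGAP29 beside ABCD3 (1.11) and TMEM243 beside CROT (1.5). CROT, which handles fatty acids in peroxisomes, read 7.09, 7.12 and 6.91 without drug and 8.50, 8.48 and 8.64 with it.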
